A study of Homo sapiens and Mus musculus with 33 samples.

Results

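The genes described here are 50 genes of neurons: 48 that encode proteins of the synapse, the neuronal cytoskeleton, neuronal RNA binding, ion channels and receptors, and secretory granules, together with REST and its co-repressor partner RCOR2, which were kept as context for repression and are counted among the neuronal genes unless stated. The rule names the genes and uses no value, although the list was drawn up with earlier results of these data known, and all 50 were found among the 35805 genes of the human RNA table. In the mouse RNA table of 25965 genes 48 were found under the title-case symbol and 2, Map2 (listed as Mtap2) and Scn2a (listed as Scn2a1), by their gene identifier. HCT116 cells, a human colon cancer line of epithelial origin, were treated for 18 h with 5 µM MS275 (entinostat, an inhibitor of class I histone deacetylases) or with the same amount of the vehicle DMSO. RNA was sequenced in 4 libraries per treatment, and histone H3 carrying a crotonyl group (H3K18cr) or an acetyl group (H3K18ac) on lysine 18 was profiled by chromatin immunoprecipitation and sequencing (ChIP-seq) in 3 libraries per treatment and mark, with 1 input library per treatment. Colon epithelium of untreated male C57BL/6 mice, whose age was not given in the sources used here, gave 3 RNA libraries, 3 ChIP-seq libraries for H3K4me3 (trimethylation of lysine 4, a mark of gene starts) with 1 input, and 2 for H3K18cr with 2 inputs. The sources differ on the colon H3K18cr tissue, which is given as pooled colons in the study's methods and as separate mice elsewhere in the study. Each cell line result rests on a single cancer line.

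REST is a zinc finger protein that binds a DNA element called RE1 at many neuronal genes and keeps them silent in cells that are not neurons. It acts through co-repressors of the CoREST family, of which RCOR2 is a member, and these bring class I histone deacetylases (HDAC1 and HDAC2) and the histone demethylase KDM1A to the gene. Inhibition of class I deacetylases therefore removes an enzymatic activity that this complex carries, and whether neuronal genes move in an epithelial line under MS275 is the question that the listed genes address.

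The letters of the RE1 consensus were looked for in the promoters of the listed genes, because this element is where REST would be bound. The letters searched were TTCAGCACC followed by 2 bases of any kind and GGACAG, on both strands, with up to 3 mismatches over the 15 letters compared. RefSeq promoters of the assembly GRCh38.p14 were matched for 34 of the 50 genes, with 69 promoters in all. In the 250 bases before the start, 2 of these 69 promoters (2.90%) held such a match, against 368 of 35116 promoters (1.05%) of all genes. The shorter arm GGACAG alone was in 17.2% of all promoters and the longer arm TTCAGCACC in 0.288%. The 2 promoters with a match and that of VGF are shown, 5′ to 3′ on the strand of the gene, with the matching window in capitals. VGF is shown because it was among the genes whose RNA changed and because the shorter arm, on the opposite strand, makes up the last 6 bases before its start.
GRIA2 (chr4:157220369-157220618, + strand): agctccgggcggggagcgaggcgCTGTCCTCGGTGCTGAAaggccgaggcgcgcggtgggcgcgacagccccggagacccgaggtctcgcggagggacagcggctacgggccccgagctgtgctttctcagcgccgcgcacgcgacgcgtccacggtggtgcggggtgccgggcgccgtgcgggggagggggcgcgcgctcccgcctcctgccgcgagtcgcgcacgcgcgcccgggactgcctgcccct
TUBB2B (chr6:3227654-3227903, - strand): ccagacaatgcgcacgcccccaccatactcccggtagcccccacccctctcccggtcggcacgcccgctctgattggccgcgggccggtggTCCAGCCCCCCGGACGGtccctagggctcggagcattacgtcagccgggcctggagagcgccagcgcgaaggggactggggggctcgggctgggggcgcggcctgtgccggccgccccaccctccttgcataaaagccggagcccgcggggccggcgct
VGF (chr7:101165570-101165819, - strand): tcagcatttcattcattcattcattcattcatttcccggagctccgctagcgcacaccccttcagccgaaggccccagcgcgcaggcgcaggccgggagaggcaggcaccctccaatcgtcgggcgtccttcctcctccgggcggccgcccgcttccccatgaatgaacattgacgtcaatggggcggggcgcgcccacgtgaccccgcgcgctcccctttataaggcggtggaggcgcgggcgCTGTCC

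A window that reached 50 bases past the start was searched as well, after the shorter arm had been seen at the edge of the VGF promoter and the rise of VGF was known, so the shares below are a description and no independent support. Over these 300 bases 4 of the 69 promoters (5.80%) held a match, against 467 of all 35116 promoters (1.33%). The 4 matches are written in the direction of the motif, with each letter that matches the consensus in capitals.
GRIA2, chr4:157220392-157220408, 0 mismatches: TTCAGCACCgaGGACAG
VGF, chr7:101165559-101165575, 1 mismatch: TTCAGCACgctGGACAG
TUBB2B, chr6:3227796-3227812, 3 mismatches: TcCAGCcCCccGGACgG
UNC13A, chr19:17688340-17688356, 3 mismatches: TTCAGCACCggGGgCgc
The VGF match lay across the annotated start, with 6 bases before it and 11 after it. The match of UNC13A crossed the start too, with 2 bases before and 15 after, and its 6-letter arm was the less complete one. These matches describe letters only, and binding of REST was not measured in any of the libraries.

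In the RNA libraries of HCT116 cells, 23 of the 50 genes reached at least 1 CPM (counts scaled to a library total of 1000000) in all 8 libraries, against 58.6% of 17967 protein-coding genes. Library totals ranged from 36312506 to 53415604 counts with DMSO and from 35608533 to 41901925 with MS275. A test was made for 27 genes with enough counts, and 23 genes were too low for one. Of these 23, STMN4, ELAVL2, ELAVL4 and NRXN3 had 0 counts in every library, 11 had counts in a single library and 8 in 2 to 7 libraries. The highest mean among the 23 was 0.257 CPM, and a count of 0 allows up to 0.0562 CPM in the deepest and 0.0842 CPM in the shallowest library. The neurofilament genes NEFL, NEFM and NEFH, the internexin gene INA, the growth cone gene GAP43 and the synaptic vesicle fusion gene SNAP25 were among the genes too low to test. Among these 6, NEFL reached 1.29 CPM in DMSO replicate 1 and SNAP25 0.916 CPM in MS275 replicate 2, and the other values were at or below 0.435 CPM. Reads of genes with few counts were more frequent in DMSO replicate 3, with 1741 CPM in such genes against 367 to 942 in the other libraries, and single high counts of otherwise low genes in that library stand beside this value.

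Over the 27 tested genes, 22 were higher and 5 lower with MS275, with a median log2 fold change of 0.25 against 0.01 over all 14961 genes tested. Without REST and RCOR2, 20 of 25 were higher and 5 lower, and the median was 0.25 as well. With edgeR's quasi-likelihood test, 0 of the 27 genes had an adjusted p under 0.05 and 5 an unadjusted one. In this fit 1 of all 14961 genes passed (0.00668%), and 987 had an unadjusted p under 0.05. The same-numbered DMSO and MS275 libraries were treated as pairs, because each such pair deviated together from its group means, and a fit that holds the replicate number as a block changed this call. In it, 3 of the 27 genes passed, MAP2, VGF and MAPT, and all 3 were higher with MS275. In this blocked fit 14.4% of all genes passed in either direction and 7.83% were higher, which sets the 3 of 27 beside a broad response. All 4 MS275 libraries lay above all 4 DMSO libraries for 5 of the 27 genes, SYT11, RAB3A, MAP2, GRIN1 and VGF, against 2.95% of all genes. Within all 4 pairs 9 of the 27 genes were higher with MS275, against 20.0% of all genes.

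**Figure D1:**
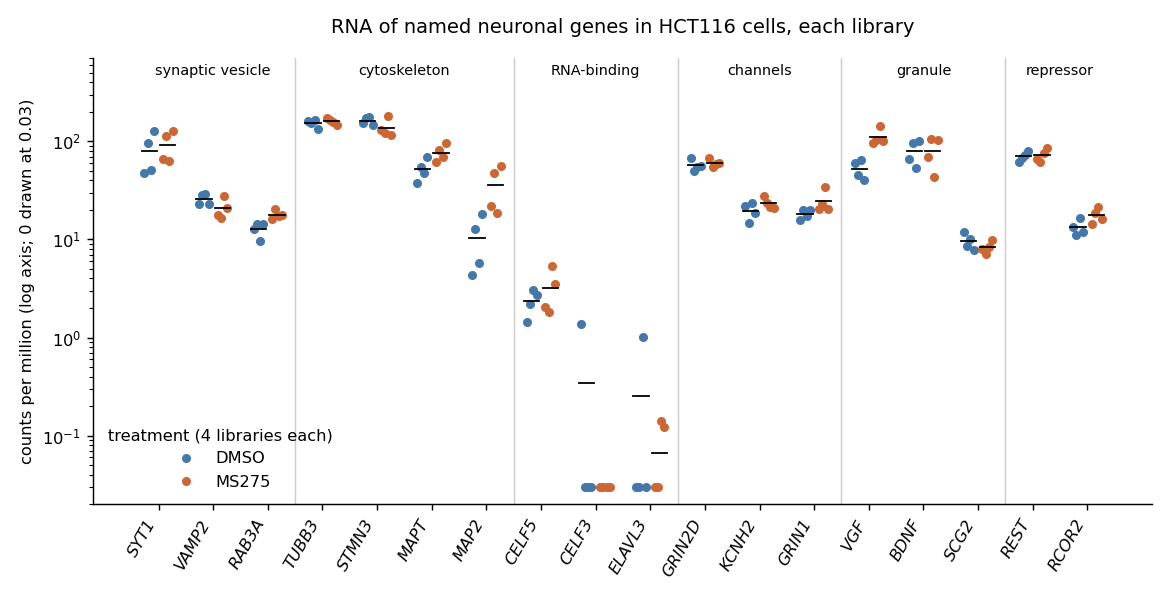
RNA of the named genes in each HCT116 library, in CPM on a log axis with 0 drawn at 0.03; points are libraries (4 per treatment) and black lines are treatment means. MAP2 moves from 4.39 to 18.2 CPM with DMSO to 18.5 to 55.7 CPM with MS275, and VGF from 40.3 to 63.9 CPM to 95.9 to 142 CPM, whereas REST covers about the same range in both.

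The repressor genes themselves were read first. REST had 61.5, 67.5, 72.1 and 80.2 CPM with DMSO in replicates 1 to 4 and 66.8, 62, 76.8 and 85.2 CPM with MS275. The 2 groups overlapped, and the log2 fold change was 0.04 ± 0.18 (SE, edgeR adjusted p = 0.992) without the block and 0.03 ± 0.08 (adjusted p = 0.852) with it. RCOR2, which encodes a CoREST protein, had 13.5, 11, 16.7 and 11.8 CPM with DMSO and 14.2, 18.5, 21.3 and 16.2 CPM with MS275. RCOR2 was higher with MS275 in each of the 4 pairs, and its log2 fold change of 0.39 ± 0.16 (SE, edgeR adjusted p = 0.111 with the block) did not pass. Among 25 further genes of the REST co-repressor machinery, all of them tested, 0 rose and 3 fell in the blocked fit and none passed in the fit without the block. Over all genes 7.83% rose and 6.55% fell in the blocked fit. The 3 were CTDSP1, a phosphatase that works with REST (log2 fold change −0.40 ± 0.09, edgeR adjusted p = 0.0123), CTBP1, a co-repressor (−0.41 ± 0.07, edgeR adjusted p = 0.0027), and SUV39H1, a histone H3 lysine 9 methyltransferase (−0.51 ± 0.12, edgeR adjusted p = 0.0121). The median over the 25 genes was −0.06 in both fits. KDM1A (log2 fold change 0.02 ± 0.06), HDAC1 (0.06 ± 0.06) and HDAC2 (−0.08 ± 0.06) did not pass in the blocked fit, and the RNA level of a deacetylase does not report its activity under an inhibitor.

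Cytoskeletal and axon growth genes held the widest range of levels and 2 of the 3 genes that passed. Of 15 genes, 6 were at 1 CPM or more in all libraries, 6 were tested, 5 of these were higher and 1 lower, and 2 passed in the blocked fit. MAP2, which encodes a microtubule-associated protein of dendrites, had 4.39, 12.9, 5.81 and 18.2 CPM with DMSO and 22, 47.1, 18.5 and 55.7 CPM with MS275. Its replicates 2 and 4 were high and 1 and 3 low with both treatments, and MS275 was higher in each of the 4 pairs. The log2 fold change of MAP2 was 1.85 ± 0.14 with the block, a 3.6-fold rise (SE, edgeR adjusted p = 4.95e-05), and 1.78 ± 0.45 without it (adjusted p = 0.336). MAPT, which encodes tau, a microtubule-associated protein of axons, had 37.7, 54.9, 47.6 and 69.8 CPM with DMSO and 61, 81.7, 68.6 and 95.4 CPM with MS275. The groups of MAPT overlapped while each of its 4 pairs was higher, and the log2 fold change was 0.55 ± 0.08 with the block (1.46-fold, edgeR adjusted p = 0.00151) and 0.53 ± 0.21 without it (adjusted p = 0.644). An antisense gene, MAPT-AS1, lies at this locus, and whether counting used strand was not stated.

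The most abundant cytoskeletal genes per length did not follow. TUBB3, which encodes the neuronal class of β-tubulin, had 160, 155, 164 and 135 CPM with DMSO and 172, 165, 157 and 146 CPM with MS275. At 50.5 CPM per kb over the 8 libraries it was the listed gene with the highest level, next to STMN3 at 49.7 CPM per kb, and its log2 fold change was 0.05 ± 0.07 (edgeR adjusted p = 0.704 with the block). TUBB3 overlaps MC1R, and reads of the 2 genes could be shared in counting. STMN3, a stathmin that binds tubulin dimers, had 154, 174, 178 and 146 CPM with DMSO and 130, 123, 183 and 117 CPM with MS275. STMN3 was lower in 3 of 4 pairs and higher in replicate 3, and its log2 fold change was −0.27 ± 0.09 (edgeR adjusted p = 0.052 with the block). DPYSL3 and DPYSL4, which encode collapsin response mediator proteins of the growth cone, were higher in 4 of 4 pairs without passing, with log2 fold changes of 0.24 ± 0.09 (edgeR adjusted p = 0.115 with the block) and 0.26 ± 0.26 (adjusted p = 0.555).

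Genes of the granule group gave the other gene that passed. VGF, which encodes a neuropeptide precursor that is packed into dense core granules, had 60.7, 45.5, 63.9 and 40.3 CPM with DMSO and 95.9, 103, 142 and 101 CPM with MS275. All MS275 libraries lay above all DMSO libraries, and replicate 3 was the highest with either treatment. The log2 fold change of VGF was 1.07 ± 0.11 with the block, a 2.09-fold rise (SE, edgeR adjusted p = 0.000126), and 1.06 ± 0.26 without it (adjusted p = 0.319). VGF is also the gene whose start is crossed by the RE1 match with 1 mismatch printed above, whereas GRIA2, with the full match, had counts in 2 of 8 libraries and a highest value of 0.31 CPM. TUBB2B had counts in 1 library, at 0.0223 CPM, and UNC13A had 59.1 ± 7.37 CPM with DMSO and 64.1 ± 8.36 CPM with MS275 (SD, n = 4 each) and a log2 fold change of 0.10 ± 0.12 (edgeR adjusted p = 0.628 with the block). The 4 genes with a match therefore covered genes too low to test, an abundant gene that did not pass and a gene that rose.

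BDNF, the gene of a secreted neurotrophin, had 66.4, 95.8, 53.7 and 101 CPM with DMSO and 69.8, 106, 43.2 and 102 CPM with MS275. The replicates of BDNF differed more than the treatments, and its log2 fold change was −0.03 ± 0.09 (edgeR adjusted p = 0.849 with the block). SCG2, which encodes secretogranin II, had 11.8, 8.48, 10.2 and 7.73 CPM with DMSO and 8.02, 7.07, 8.42 and 9.89 CPM with MS275, with overlapping groups and a log2 fold change of −0.20 ± 0.20 (edgeR adjusted p = 0.564 with the block). The antisense gene BDNF-AS lies at the BDNF locus.

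Among 14 genes of the synaptic vesicle and of exocytosis, 8 were at 1 CPM or more in all libraries and 11 were tested, of which 9 were higher, 2 were lower and 0 passed in either fit. RAB3A, a GTPase of synaptic vesicles, had 12.8, 14.5, 9.75 and 14.2 CPM with DMSO and 16, 20.4, 17.2 and 17.9 CPM with MS275. The 2 groups of RAB3A did not overlap, and its log2 fold change of 0.47 ± 0.15 (1.39-fold) had an edgeR adjusted p of 0.0526 with the block and 0.658 without it. VAMP2, the vesicle membrane SNARE, had 23.2, 28.2, 29 and 22.9 CPM with DMSO and 17.8, 16.5, 27.7 and 21 CPM with MS275. Among the tested genes of the list VAMP2 alone was lower in 4 of 4 pairs, with a log2 fold change of −0.35 ± 0.14 (edgeR adjusted p = 0.112 with the block). SYT1, the calcium sensor of vesicle fusion, had 47.6, 97, 50.5 and 127 CPM with DMSO and 66.3, 114, 63 and 126 CPM with MS275, a log2 fold change of 0.24 ± 0.09 (edgeR adjusted p = 0.0849 with the block). As for MAP2 and BDNF, replicates 2 and 4 of SYT1 were high with both treatments. SYT11, a synaptotagmin of low level, had 1.25, 0.799, 0 and 0.618 CPM with DMSO and 1.81, 3.51, 3.2 and 2.75 CPM with MS275, and its log2 fold change of 2.47 ± 0.96 (edgeR adjusted p = 0.105 with the block) carried the error of low counts. STX1A, the syntaxin of the presynaptic membrane, stood at 19.6 and 19.2 CPM in MS275 replicates 1 and 3 and at 6 and 8.08 CPM in replicates 2 and 4, against 6.91 to 8.75 CPM with DMSO.

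Of 9 channel, receptor and adhesion genes, 3 were at 1 CPM or more in all libraries and 4 were tested, all 4 higher and 0 past the threshold. GRIN1, the obligatory subunit of the NMDA receptor, had 15.7, 19.8, 17.3 and 19.9 CPM with DMSO and 20.3, 23.1, 34.2 and 20.2 CPM with MS275. Its groups did not overlap, by a margin that was small in replicates 1 and 4, and the log2 fold change was 0.39 ± 0.16 (edgeR adjusted p = 0.122 with the block). GRIN2D, another NMDA receptor subunit, had 67.8, 49.5, 55.2 and 56.5 CPM with DMSO and 67.1, 55, 58.2 and 59.7 CPM with MS275, and its log2 fold change was 0.06 ± 0.09 (edgeR adjusted p = 0.708 with the block). KCNH2, a potassium channel subunit, had 21.7, 14.7, 23.6 and 18.8 CPM with DMSO and 28, 23.6, 21.5 and 20.8 CPM with MS275, a log2 fold change of 0.25 ± 0.15 (edgeR adjusted p = 0.282 with the block). Of the 6 neuronal RNA-binding proteins, CELF5 alone was tested, with 1.43, 2.18, 3.07 and 2.71 CPM with DMSO and 2.05, 1.81, 5.36 and 3.54 CPM with MS275. Its log2 fold change was 0.35 ± 0.39 (edgeR adjusted p = 0.612 with the block), and ELAVL2 and ELAVL4, which encode the HuB and HuD proteins, had no counts.

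**Figure D2:**
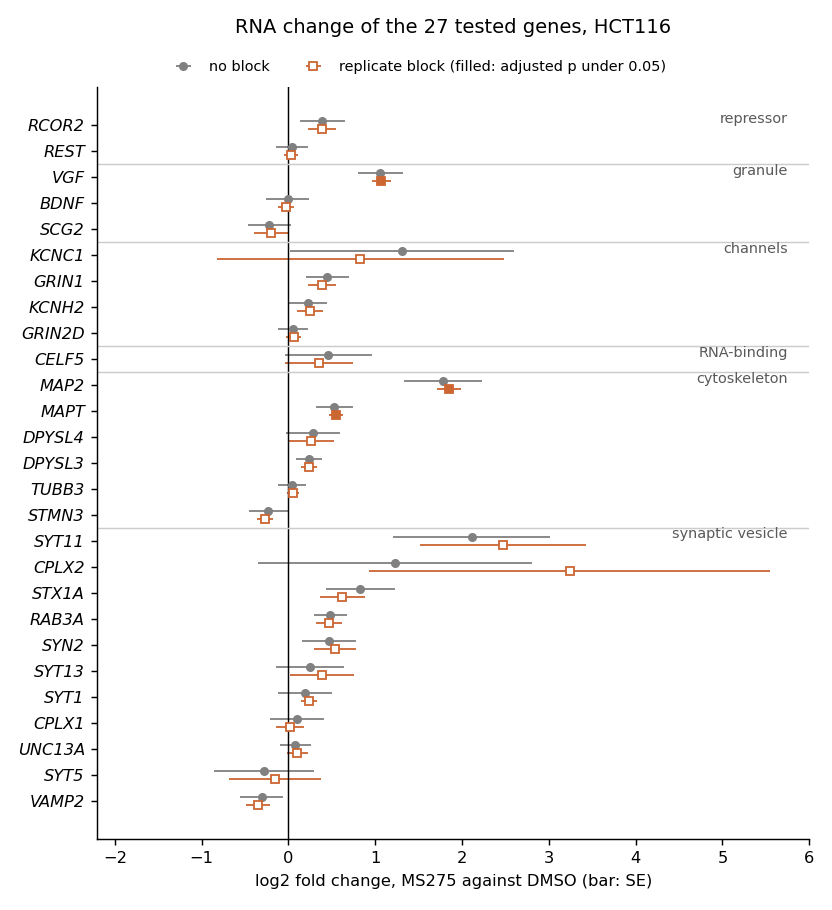
Log2 fold change of each of the 27 tested genes of the list, REST and RCOR2 included, MS275 against DMSO, in the edgeR fit without the block (grey circles) and with the replicate block (squares, filled where the adjusted p is under 0.05); bars are SE. The 3 filled squares are MAP2 at 1.85, VGF at 1.07 and MAPT at 0.55, and 22 of the 27 genes lie to the right of 0 in the fit without the block.

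Relatives of the listed genes, taken from the same protein families but not on the list, were read the same way. Of 72 such genes 48 were tested, and 9 rose and 1 fell in the blocked fit, with a median log2 fold change of 0.28, while none passed without the block. The risers were further microtubule-associated proteins, MAP1B (0.52 ± 0.08, edgeR adjusted p = 0.00245) and MAP1A (0.58 ± 0.14, edgeR adjusted p = 0.0148), the tubulins TUBB2A and TUBB4A, RAB3B (0.73 ± 0.09, edgeR adjusted p = 0.000383) and RAB3D, DPYSL5, SYT7 and the sodium channel gene SCN8A. VAMP8, a SNARE of epithelial secretion, fell (−0.35 ± 0.11, edgeR adjusted p = 0.0454). The shares that passed, 9 of 48 higher, stand against 7.83% higher over all genes. Markers of other cells were read beside these results. Of 7 markers of brain neurons, 1 was at 1 CPM or more in all libraries and 2 had no counts, and their summed level was 3.51 to 8.21 CPM with DMSO and 10.6 to 12 CPM with MS275. The sum over 6 stromal markers, 1 of them at 1 CPM or more in all libraries, was 10.4 to 13.3 CPM with DMSO and 22.7 to 25 CPM with MS275. That over 12 enteroendocrine markers, 0 of them at that level, was 0 to 2.58 and 0.61 to 1.94 CPM. That over 12 epithelial markers, 8 of them at that level, was 3886 to 5451 and 5032 to 5987 CPM. Of the 9 epithelial markers tested, 8 passed in the blocked fit and none without it. Higher were CDH1, which encodes E-cadherin (log2 fold change of 0.74 ± 0.09, edgeR adjusted p = 0.000466), the transcription factor gene ELF3 (0.41) and the keratin genes KRT8 (0.32), KRT18 (0.29) and KRT19 (0.37), and lower were the adhesion gene EPCAM (−0.22), the intestinal transcription factor gene CDX2 (−0.44) and the claudin gene CLDN7 (−0.24). Of the 3 stromal markers tested the collagen gene COL1A1 passed as higher in the blocked fit (0.92 ± 0.20, edgeR adjusted p = 0.00874). The 3 brain neuron markers tested did not pass in either fit. The part of these shifts in the results was not tested.

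At the chromatin of HCT116 cells, H3K18cr and H3K18ac had been counted over 1 list of 40266 peaks. Of the 50 genes 32 had a peak in the gene or within 2 kb of it (64% against 73.4% of protein-coding genes) and 21 had one within 1 kb of a start (42% against 65%). RNA and start peaks went together in number: 19 of the 23 genes at 1 CPM or more in all libraries had a start peak (82.6%, against 95.8% of protein-coding genes at that level), and 2 of the 27 lower genes had one (7.41% against 21.5%). Among the loci without any peak in the list were NEFL, NEFM, NEFH, INA, ELAVL2, ELAVL4, GRIA2 and TUBB2B. DPYSL4 had no peak either, although its RNA was at 1 CPM or more in all 8 libraries. The listed genes had 123 peaks between them, 26 at a start and 97 elsewhere, and SYT1 with 15 peaks, CPLX2 with 9 and MAP2 with 8 held the most. Peaks of 1 gene are not independent of each other.

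With the scaling of the deposited values, 19 of the 123 peaks, at 12 genes, were lower in H3K18cr with MS275 (limma, adjusted p under 0.05) and 0 were higher. Over all 40266 peaks 22.8% passed as lower and 0.236% as higher. The median log2 change was −0.17 over the 123 peaks and −0.20 over all peaks. At the 26 start peaks 8 passed as lower and the median was −0.40, against 54.9% lower and a median of −0.54 over all 12173 peaks at gene starts. For H3K18ac 9 peaks passed as lower and 1 as higher, against 16.2% and 0.261% of all peaks. The H3K18ac median was −0.07 over the 123 peaks and −0.19 over all, and at the starts 3 of 26 passed as lower, with a median of −0.31 against 43.1% and −0.59 over all start peaks. The direction of the medians over all peaks depends on the scale, since ChIP-seq reads give shares of a library. Under TMM scaling of the recovered reads the H3K18cr median of all peaks moved from −0.20 to 0.04 and the H3K18ac median from −0.19 to 0.06, and those of the 123 peaks moved to 0.08 and 0.18. The split of the 123 peaks for H3K18cr then went from 85 lower and 38 higher to 49 lower and 74 higher, and that for H3K18ac from 73 lower and 50 higher to 37 lower and 86 higher. At the starts the direction stayed, with medians of −0.17 for H3K18cr and −0.05 for H3K18ac at the 26 listed start peaks, of which 16 and 15 were lower. Over all start peaks the medians were −0.31 and −0.35. Both scales are relative, so a lower value is a smaller share of reads and does not give the amount of a mark per cell. With MS275 the study reported more H3K18cr in western blots and, by ChIP-qPCR, over promoters of chosen genes. It proposes that the drop of reads over starts is a proportional one. Of the 19 H3K18cr calls 6 still passed under TMM (7 calls in all, 6 lower and 1 higher), and of the 10 H3K18ac calls 9 did (13 calls, 10 lower and 3 higher). Leaving out single libraries moved the number of H3K18cr calls between 8 and 34, the latter without DMSO replicate 3, and that of H3K18ac calls between 2 and 17. When replicate numbers entered the ChIP-seq fit as a block, the H3K18cr calls were 24 and the H3K18ac calls 2, the latter at the peak over the PER1 start and inside CELF5. The study used a paired test on average profiles of these libraries, and the H3K18ac values of single peaks given here are without the block.

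The changes of the 2 marks were set beside each other over these peaks and over all peaks, with no test between the peak sets. Their log2 changes had a Pearson correlation of 0.68 over the 123 peaks, against 0.69 over all peaks, as a description across peaks that share loci, input and base composition. The marks had the same sign at 87 peaks (70.7% against 73.4% of all peaks) and both were lower at 61 (49.6% against 56.2%). A test of whether the effect of MS275 differed between the marks gave 0 of 123 peaks with limma (adjusted p under 0.05, and 0 at an unadjusted p under 0.05), and 0% of all peaks, of which 739 had an unadjusted p under 0.05. There were 7 peaks that passed for both marks (5.69%, against 14.2% of all peaks), named here in the order of their H3K18ac change. The first were the peak near VAMP2 over the start of PER1, a peak inside CELF5 and the GRIN2D peak over the start of GRWD1. A peak near RAB3A followed, outside that gene and over the start of MPV17L2. The last were the start peaks of VAMP2 and TUBB3 and a peak inside STX1A.

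**Figure D3:**
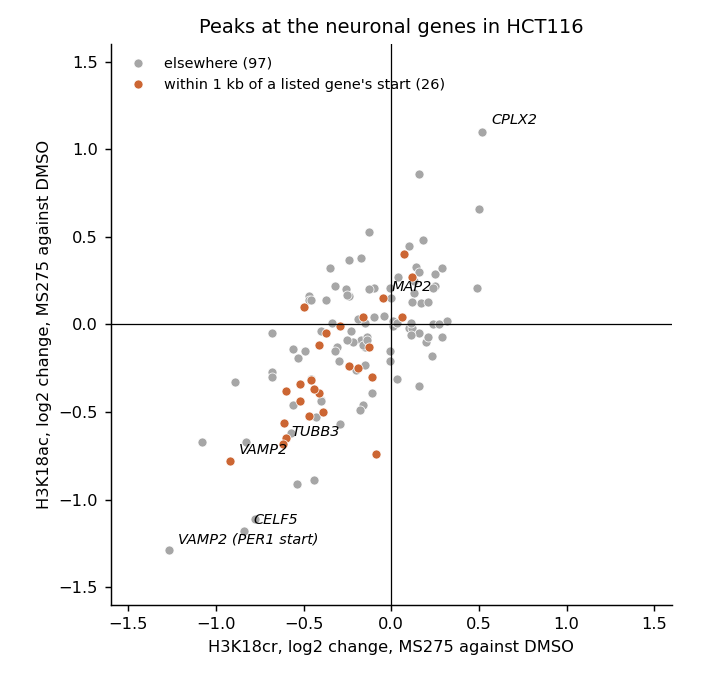
Log2 change of H3K18cr (horizontal) and H3K18ac (vertical) with MS275 against DMSO, on the deposited scale, for the 123 peaks at the neuronal genes in HCT116 cells; each point is a peak, coloured for the 26 within 1 kb of the start of a listed gene. Of the 123 points 61 lie below 0 on both axes, with the peak near VAMP2 over the start of PER1 the lowest of the 123 for both marks at −1.27 and −1.29, and the MAP2 start peak sits near the origin.

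The peak with the largest change lay near VAMP2 (chr17:8149951-8159100 on GRCh38), outside the gene and over the start of PER1, a clock gene. Its H3K18cr reads, scaled to the largest library, were 978, 1009 and 1336 with DMSO and 367, 374 and 683 with MS275. The H3K18ac reads there were 1039, 1449 and 2015 with DMSO and 693, 551 and 541 with MS275. The groups did not overlap for either mark, and the log2 changes were −1.27 ± 0.18 (SE, limma adjusted p = 2.78e-05) and −1.29 ± 0.24 (limma adjusted p = 2.63e-05). At the start of VAMP2 itself (chr17:8160451-8165400) H3K18cr went from 432, 419 and 442 to 196, 220 and 278 scaled reads, a log2 change of −0.92 ± 0.16 (limma adjusted p = 0.000123). H3K18ac there went from 312, 475 and 593 to 321, 241 and 224, with overlap of 1 library and a log2 change of −0.78 ± 0.25 (limma adjusted p = 0.0164, and 0.22 with the block). Both peaks passed under TMM scaling as well, at −1.01 and −0.67 for H3K18cr. VAMP2 was also the tested gene whose RNA was lower in 4 of 4 pairs without passing.

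At the start of TUBB3 a peak of 11.6 kb (chr16:89915101-89926650), which covers the start of MC1R too, had H3K18cr reads of 1255, 1175 and 944 with DMSO and 702, 751 and 728 with MS275. The groups did not overlap, the log2 change was −0.62 ± 0.15 (limma adjusted p = 0.00227; −0.38 and 0.0178 under TMM), and H3K18ac changed by −0.68 ± 0.24 (limma adjusted p = 0.0316). The RNA of TUBB3 stayed within its replicate spread over the same treatment. Inside STX1A (chr7:73704751-73708050) H3K18cr went from 289, 303 and 183 to 129, 147 and 149 scaled reads, a log2 change of −0.83 ± 0.18 (limma adjusted p = 0.000898). Within UNC13A (chr19:17604751-17607300) it went from 137, 126 and 142 to 55.1, 60.9 and 114 (−0.89 ± 0.21, limma adjusted p = 0.00192). Near the 3′ side of GRIN2D a peak over the start of the neighbouring gene GRWD1 (chr19:48444451-48447000) went from 191, 152 and 173 to 91.1, 97.7 and 111 for H3K18cr (−0.78 ± 0.17, limma adjusted p = 0.00117) and by −1.11 ± 0.25 for H3K18ac (limma adjusted p = 0.000534). These 3 peaks passed for H3K18cr under TMM too. Inside CELF5 (chr19:3283951-3285600) the changes were −0.84 ± 0.21 (limma adjusted p = 0.00292; 0.0512 under TMM) for H3K18cr and −1.18 ± 0.25 (limma adjusted p = 0.000202) for H3K18ac, while its start peak had a change of 0.07 ± 0.28 (limma adjusted p = 0.918).

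For the 3 genes whose RNA rose in the blocked fit, H3K18cr on the deposited scale passed as lower at VGF and did not pass at MAP2 or MAPT, and the difference between these genes was not tested. The VGF start lay in a peak of 21.9 kb (chr7:101153101-101175000) that also covers the start of AP1S1. It had H3K18cr reads of 1853, 1712 and 1307 with DMSO and 1129, 1082 and 1139 with MS275, without overlap, and a log2 change of −0.52 ± 0.15 (limma adjusted p = 0.00978; −0.29 and 0.0622 under TMM). H3K18ac in this peak was 935, 1241 and 1836 with DMSO and 1148, 927 and 803 with MS275, with overlap and a log2 change of −0.44 ± 0.24 (limma adjusted p = 0.221). A peak this wide sums the reads of 2 genes, and the signal at the RE1 match cannot be read from it. The start peak of MAP2 (chr2:209423251-209425500) had H3K18cr reads of 61, 56 and 80.4 with DMSO and 65.2, 55.2 and 68.7 with MS275. Its log2 changes were −0.05 ± 0.21 for H3K18cr (limma adjusted p = 0.919) and 0.15 ± 0.25 for H3K18ac (limma adjusted p = 0.796), and none of the 8 MAP2 peaks passed for either mark. The single MAPT peak (chr17:45945451-45954750) went from 400, 424 and 373 to 396, 361 and 324 in H3K18cr, a log2 change of −0.15 ± 0.15 (limma adjusted p = 0.583). Unlike the VGF and MAP2 peaks it lay inside the gene away from a start, and no start peak of MAPT was in the list. The MAP2 rise in RNA was thus measured beside start peaks whose scaled reads overlapped between treatments for both marks.

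The start peaks of REST (chr4:56906851-56910000) and RCOR2 (chr11:63915601-63921600) changed by −0.41 ± 0.18 (limma adjusted p = 0.0962) and −0.44 ± 0.17 (limma adjusted p = 0.062) in H3K18cr, beside a median of −0.54 over all start peaks. That of KCNH2 changed by −0.16 ± 0.19 (limma adjusted p = 0.651). By role, 13 of the 19 H3K18cr calls were at synaptic vesicle genes, which held 62 of the 123 peaks. The single higher call was an H3K18ac peak inside CPLX2 (chr5:175850551-175851150), which encodes a complexin, with 10.2, 6.03 and 14.2 scaled reads with DMSO and 26, 19.8 and 16.8 with MS275 (log2 change 1.10 ± 0.40, limma adjusted p = 0.0363). The reads behind this CPLX2 value were few, though its groups did not overlap.

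In mouse colon epithelium 23 of the 50 genes were at 1 CPM or more in all 3 RNA libraries, against 55.9% of protein-coding genes, and 7 had no counts. These 7 were Cplx1, Stmn4, Dpysl4, Elavl2, Scn2a, Nrxn3 and Bdnf. The libraries held 8166406 to 10707901 counts, so that the colon was read less deeply than HCT116. Per length, Vamp2 stood highest, at 25.9 CPM per kb (60, 81 and 78.4 CPM in the 3 libraries). Rab3a followed at 9.77 CPM per kb (15.7, 15.8 and 20.9 CPM), Rest at 7.52 (52, 61.8 and 49.2 CPM), Dpysl3 at 6.25 (31.5, 48.8 and 33.5 CPM) and Cplx2 at 4.41 (20.4, 22 and 22.8 CPM). Synaptic vesicle genes made up 11 of the 23 detected genes, and 11 of the 14 genes of that group were detected. Rab3a and Rest, at 17.5 ± 3.0 and 54.3 ± 6.63 CPM (SD, n = 3), differed more in CPM than per length, because the Rest transcript is long.

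Markers of cells other than absorptive epithelium were present in the tissue, though not all of each list. All 12 epithelial markers were detected, at a sum of 13388 to 15283 CPM, and 11 of 12 enteroendocrine markers were, at a sum of 554 to 589 CPM. Of 12 enteric neuron markers 2 were detected, with a sum of 6.49 to 11.6 CPM. Of 6 markers of enteric glia 1 was detected and 2 had no counts, with a sum of 298 to 343 CPM. In HCT116 cells 1 of these 6 was detected too, with a sum of 28.5 to 46.4 CPM with DMSO. Of 6 immune markers 4 were detected, with a sum of 62.3 to 77.3 CPM, and of 6 stromal markers 3, with a sum of 22.9 to 38.6 CPM. Enteroendocrine cells secrete hormones from granules and use part of the same exocytosis machinery as synapses. In bulk RNA, fewer cells of a type and less RNA per cell cannot be told apart, and which cells of the colon carry the neuronal RNA was not tested.

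**Figure D4:**
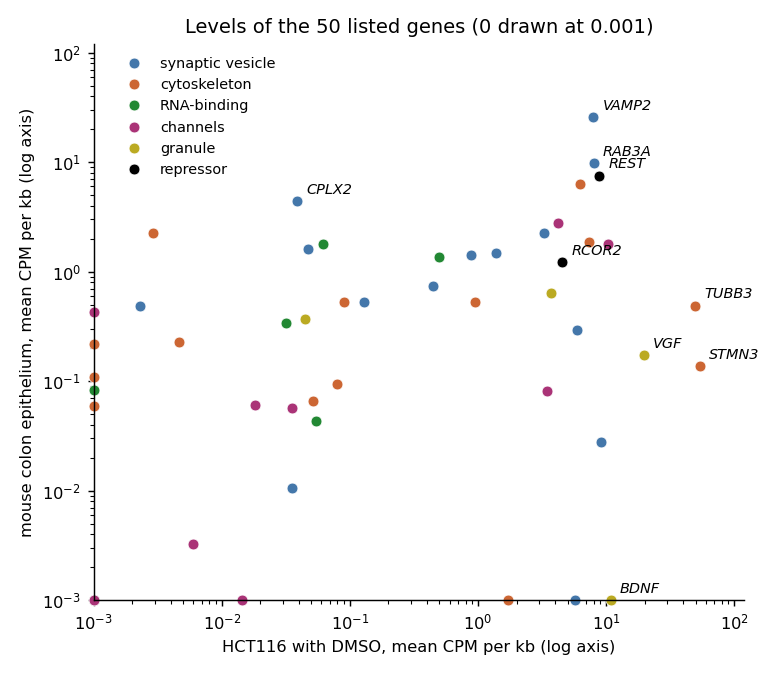
Mean RNA level of the listed genes in HCT116 cells with DMSO and in mouse colon epithelium, per kb of transcript; each point is a gene and axes are logarithmic, with genes at 0 drawn at the edge. Vamp2, Rab3a and Rest are high in both systems, while TUBB3, STMN3 and VGF are high in HCT116 cells and below 1 CPM per kb in colon.

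In HCT116 cells and in colon 14 genes were detected in common, which is 60.9% of the 23 of either system. Over 14198 protein-coding genes paired by the same symbol in both species, 8273 were detected in both, 90.8% of those of HCT116 cells and 86% of those of colon, and the difference from the listed genes was not tested. BDNF, CPLX1, DPYSL4, GRIN1, SCG2, STMN3, SYT1, TUBB3 and VGF were detected in HCT116 cells but not in all colon libraries, and CELF3, CPLX2, NEFM, SCN3A, SNAP25, SYN3, SYT11, SYT5 and TUBB2B in colon but not in all HCT116 libraries. The remaining 18 genes were below 1 CPM in at least 1 library of each. The levels of the 2 systems come from tables counted separately and in 2 species, and no test was made between them. All 3 genes that rose with MS275 in the blocked fit were detected in HCT116 cells with DMSO, and VGF was the 1 of them not detected in all colon libraries.

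The starts of the neuronal genes in the colon carried H3K4me3 far more often than H3K18cr. Of the 50 genes 40 had an H3K4me3 peak within 1 kb of a start (80% against 66% of protein-coding genes), and 16 an H3K18cr peak (32% against 52.1%). Both marks were at 15 genes, H3K4me3 alone at 25, H3K18cr alone at Scn3b, and neither at 9. The H3K4me3 share lay above that of protein-coding genes only when weaker peaks were counted, as measured in the gene or within 2 kb of it. With peaks whose ratio of ChIP to input was above the median of the list, 28 of the 50 genes had one there (56% against 59.2% of protein-coding genes), where any such peak gave 44 genes (88% against 69.8%). Genes are called detected where every colon RNA library had 1 CPM or more, and the others, such as Nefl at 0.857, 2.9 and 1.55 CPM, may still hold RNA. Among the 23 detected genes 21 had H3K4me3 (91.3%, against 92.7% of detected protein-coding genes) and 14 had H3K18cr (60.9% against 86.3%). Among the 27 genes below that level 19 had H3K4me3 (70.4% against 32.3% of protein-coding genes below it) and 2 had H3K18cr (7.41% against 8.85%). Of these 19 starts with H3K4me3, 1 also had H3K18cr, Elavl3 (5.26%, against 22.6% of such protein-coding starts). Peaks of each mark were called on 1 list over all its libraries, and whether a mark is absent or below the calling limit cannot be told from these lists.

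**Figure D5:**
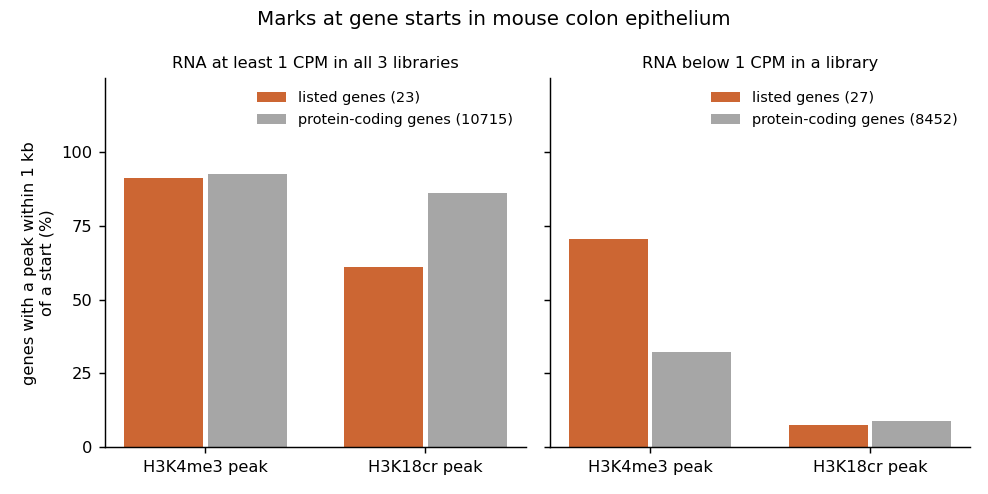
Share of genes with an H3K4me3 or an H3K18cr peak within 1 kb of a start in mouse colon epithelium, in percent, for the listed neuronal genes and for all protein-coding genes, split by RNA (at least 1 CPM in every library or not). For genes below 1 CPM in a library the H3K4me3 share is 70.4% for the neuronal genes and 32.3% for all protein-coding genes, whereas the H3K18cr shares are 7.41% and 8.85%.

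The H3K4me3 at neuronal genes of low RNA was not at the edge of the list for every gene. The Nefh start (chr11:4946701-4948500 on GRCm38), a neurofilament gene, had 159, 326 and 428 scaled reads in the 3 H3K4me3 libraries against 28 in the input, a log2 ratio of mean ChIP to input of 3.40. The start of Vamp2, the most abundant listed gene, had 239, 506 and 557 against 31 (chr11:69087901-69090150, log2 ratio 3.76). Elavl4 (chr4:110350951-110352300), with 0.367, 0.28 and 0.618 CPM of RNA, had 94.3, 118 and 179 against 24 (log2 ratio 2.39). Nefh thus carried H3K4me3 at a level near that of Vamp2 while its RNA was at 0.612, 0 and 0.103 CPM. The median log2 ratio over starts with a peak was 1.76 for the neuronal genes below the detection level and 2.27 for the detected ones, next to 1.86 and 2.72 for protein-coding genes. For H3K18cr, Vamp2 had 157 and 272 scaled reads in the 2 libraries against 33 and 56.5 in the inputs (log2 ratio 2.24), Rest 191 and 362 against 52 and 65.6 (log2 ratio 2.21), and Elavl3, the gene below that level with both marks, 52.5 and 69.7 against 31 and 27.5 (log2 ratio 1.04). With 2 libraries, of which it is unclear whether they came from separate mice, the spread between mice cannot be given for H3K18cr.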

How the data were processed

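The members of the list, the role groups and the marker and family lists were chosen with earlier results of these data known. RNA tables held raw counts per gene as deposited. The submitters' processing notes name Trim Galore 0.4.2, TopHat2 2.0.12, Bowtie2 2.2.5 and the builds GRCm38 and GRCh38. The use of strand in counting is not given in the sources used here. Per the labels and the study's methods, ChIP-seq reads were mapped, filtered and deduplicated by the authors and counted over 1 peak list per table called with MACS in SeqMonk. The HCT116 ChIP-seq table was deposited as log2 values of reads scaled to the largest library, with 0.9 read in place of 0, and the colon ChIP-seq tables as scaled read signal, deposited on a linear scale. Whole reads were recovered for 100% of these values within a tolerance of 0.02 read (2236551 to 5730094 reads in peaks for HCT116 marks). The study's methods name fewer H3K18cr replicates for HCT116 than the 3 per treatment in the table, and all were used.

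HCT116 counts were tested with edgeR 4.0.16 (quasi-likelihood, TMM, filterByExpr, R 4.3.3), 4 MS275 libraries against 4 DMSO libraries, without a block for the main result, and again blocked by replicate number. The methods describe the HCT116 RNA samples as biological replicates. Deviations of same-numbered DMSO and MS275 libraries from their group means correlated at 0.228, 0.151, 0.444 and 0.459, and those of other pairs at -0.421 to 0.237. Every same-numbered pair was above 0.1, so the numbers were treated as pairs, although the labels do not say what a number marks and replicates 2 and 4 correlated across numbers too. Printed CPM are relative to library totals, whereas fold changes use TMM. Log2 peak values were tested with limma 3.58.1, 3 against 3 for each mark. Benjamini-Hochberg adjustment ran over all genes or peaks, with 0.05 as threshold. Where nothing says that ChIP-seq libraries came from separate cultures, p-values measure the spread between libraries, which may be technical. Intervals and floors (3 counts) cover counting error only. Colon data were described without tests. Peaks within 2 kb of a gene interval were taken as its peaks, and within 1 kb of a start as start peaks, with gene models of the GENCODE annotation. A ratio to input used a pseudocount of 1. Genes named with each library's values were REST and RCOR2, those that passed in either fit, and the 3 of highest CPM per kb in each role group; peaks named were the highest start peak per group and those with the largest changes that passed, and the 5 highest colon genes were named. Other names (SYT11, STX1A, DPYSL3, DPYSL4, UNC13A, the peaks of MAP2, MAPT, REST and UNC13A, the colon starts of Nefh, Elavl3 and Elavl4, and the epithelial and stromal markers that passed) were chosen after their values were seen. DESeq2 1.42.0, other size factors, no filter, and leaving out each library were alternatives. The fits were tested on simulated data with known changes.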

Additional observations from a re-analysis of the deposited data

Results flagged for a closer look

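Of 36 groups of 4 libraries tested for a library that stood apart from the rest, 3 were singled out, and chance alone would single out about 1 in 20. CELF3, with DMSO, had 1.38 CPM in replicate 1 and no count in the other libraries. ELAVL3, with DMSO, had 1.02 CPM in replicate 3 and no count in the other DMSO libraries. VGF, with MS275, had 142 CPM in replicate 3 against 95.9 to 103 CPM in the other libraries, a gap of 0.836 of the range of the group. Without replicate 3, the log2 fold change of VGF in the fit with the replicate block was 1.02 and still passed (edgeR, adjusted p under 0.05).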

How the results depend on the processing

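Of 91 counts and medians recomputed under the alternatives, 55 stayed within the limits set, 33 moved and 3 changed sign. Of 288 recomputed fold changes of named genes, 246 kept their direction and their side of the threshold, 28 now passed it and 14 changed sign. The number of listed genes that passed in RNA went from 0 to 3 with the replicate block, 2 with DESeq2 (MAP2 and VGF) and 1 with no filter (MAP2), while over all genes it went from 1 to 2151, 140 and 13. With the block it was 3 to 6 without one pair, with VAMP2 and STMN3 lower and SYN2 higher joining without replicate 3. In alternatives added after the data were seen it was 5 with DESeq2 and the replicate block and 4 with RLE size factors and the block, both with STMN3 lower. MAP2, VGF and MAPT passed in each of these blocked fits. The median RNA change was 0.20 with no filter, 0.20 to 0.40 without single libraries and up to 0.33 in blocked fits without a pair. Without single libraries log2 fold changes ran from -0.06 to 0.11 for REST, from -0.17 to 0.16 for BDNF, from -0.02 to 0.69 for CELF5, from -0.04 to 0.14 for GRIN2D and from -0.04 to 0.13 for TUBB3, and in the blocked fit without replicate 3 REST was at -0.00 and BDNF at 0.05. For H3K18cr, TMM scaling gave 7 calls and a median of 0.08, start peaks alone 8 calls and a median of -0.40, and single libraries left out 8 to 34 calls (10 without DMSO 1, 8 without DMSO 2, 34 without DMSO 3, 8 without MS275 1, 10 without MS275 2) and medians of -0.27 to -0.11. For H3K18ac, TMM scaling gave a median of 0.18, start peaks alone 3 calls and a median of -0.31, and single libraries left out 2 to 17 calls (17 without DMSO 1, 4 without DMSO 2, 6 without DMSO 3, 2 without MS275 2, 3 without MS275 3) and medians of -0.17 to 0.03. Same-numbered ChIP-seq libraries did not all deviate together (correlations of -0.206 to 0.225), and a replicate block gave 24 calls for H3K18cr and 2 for H3K18ac. Start peaks alone left 21 genes with a peak in HCT116 cells, and the stricter H3K4me3 limit left 28 genes in colon (56%, against 59.2% of protein-coding genes, where all peaks gave 88% against 69.8%). The causes were not tested, except that TMM changes the scale by its construction and start peaks are fewer peaks. A count of 0 in HCT116 RNA allows up to 0.0562 to 0.0842 CPM.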
